A study of Zea mays with 2 samples.

Results

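The most abundant nuclear transcripts of maize endosperm were compared between wild type and the opaque2 mutant. They were the 129 loci on chromosomes 1 to 10 that spanned 300 bp or more and whose mean level over both genotypes was 500 FPKM or more, out of 43974 nuclear loci and 44119 loci in all. FPKM is a read-based level that is divided by transcript length and by library size. The loci were thus chosen by their measured mean level and not by the difference between genotypes. Their levels are a description of that choice and carry no test. Endosperm is the tissue of the kernel that stores starch and protein. Its main storage proteins in maize are the zeins, and the alpha zeins are made from families of near-identical genes that lie side by side in the genome. Opaque2 is a bZIP transcription factor of the endosperm and a known activator of zein genes, above all of the z1C family of alpha zeins.

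Each genotype was represented by 1 sample of kernel endosperm taken 15 days after pollination, labelled wild type or opaque2. The sources used here do not give the allele of opaque2, the inbred background or the number of ears or plants. The series text names triplicates, but each table held a single value per locus, and how that value relates to the triplicates is not given. The comparisons are of 1 value with 1 value, without replicates, and so carry neither an error nor a test. The tables hold no counts, and the depth of the libraries is unknown. In bulk tissue, fewer cells of a type and less RNA per cell cannot be told apart.

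The tables list loci by position alone, and no abundant locus matched a start and end of the reference gene table, that is 0 of 129, so none is named here. The tissue label was not checked against marker genes for the same reason. The reference table (RefSeq, Zm-B73-REFERENCE-NAM-5.0) lists 41 genes and pseudogenes with alpha zein symbols. Of these, 27 lie on chromosome 4 (15 of family z1C and 12 of z1A), 9 of family z1B on chromosome 7 and 5 of family z1D on chromosome 1. In that table most z1C members follow each other in 1 stretch of chromosome 4, and the z1B members do so on chromosome 7. The table places the opaque2 gene on chromosome 7. These symbols are given as background, and no locus below was assigned to any of them.

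The abundant loci made up 0.293% of the nuclear loci and held a large part of the summed nuclear FPKM. Their share was 48.1% in wild type and 40.4% in opaque2. In FPKM their summed levels were 1011224 in wild type and 852249 in opaque2, 15.7% lower in opaque2 (log2 ratio of the sums −0.25). Of the sum over nuclear loci of 300 bp or more alone, they held 70.2% in wild type and 66.4% in opaque2. The 2 highest loci together differed by more than the summed levels did. In opaque2 the highest locus was 96243 FPKM below its wild type value and the second was 100774 FPKM below, while the third was 25824 FPKM above. Without these 3 loci the other 126 summed to 204147 FPKM in wild type and 216364 FPKM in opaque2 (log2 ratio 0.08), or 9.71% and 10.3% of the nuclear sum. Without only the 2 highest, the shares were 12.6% in wild type and 14.3% in opaque2 (log2 ratio of the sums 0.19), and without the 4 highest they were 9.32% and 9.28% (log2 ratio −0.003). The sign of the difference in share thus depended on how many of the highest loci were left out.

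**Figure D1:**
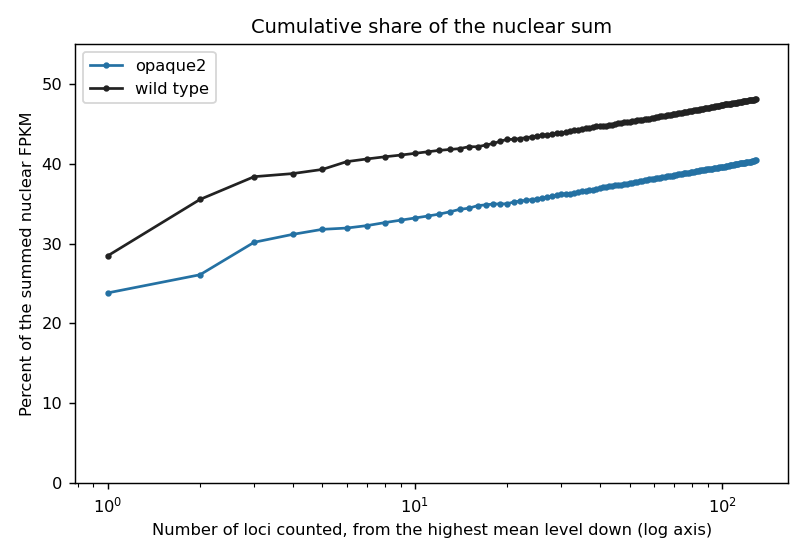
Cumulative percent of the summed nuclear FPKM (vertical axis) against the number of loci counted from the highest mean level down (log axis), for opaque2 (blue) and wild type (black). The curves reach 40.4% in opaque2 and 48.1% in wild type at 129 loci, and the first 3 loci already hold 30.2% and 38.4%.

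The most abundant locus lay on chromosome 9 at 20459075 to 20459382, with 598365 FPKM in wild type and 502122 FPKM in opaque2 (log2 ratio −0.25). It alone held 23.8% of the nuclear sum in opaque2 and 28.5% in wild type, and 58.9% and 59.2% of the sum of the abundant loci. The second lay on chromosome 1 at 217831272 to 217831586, with 148797 FPKM in wild type and 48024 FPKM in opaque2, 3.10-fold lower in opaque2 (log2 ratio −1.63). The third, on chromosome 8 at 167831187 to 167831588, had 59915 FPKM in wild type and 85739 FPKM in opaque2 (log2 ratio 0.52). These 3 loci spanned 308, 315 and 402 bp. The chromosome 9 locus ranked 1 in both genotypes, while the chromosome 8 locus ranked 2 in opaque2 and 3 in wild type.

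Short spans were frequent among the highest values. FPKM divides by transcript length, so the same number of fragments gives a higher value on a shorter transcript. Whether this shaped the values here was not tested, since transcript lengths and fragments were not available. The 9 abundant loci under 500 bp held 76.6% of the summed level of all 129 in opaque2 and 81.2% in wild type. The other 120, of 500 bp or more, summed to 190604 FPKM in wild type and 199183 FPKM in opaque2, 9.06% and 9.45% of the nuclear sum. Of the 9 short loci, 6 lay within 1.5-fold between genotypes, 1 was at least 2-fold lower and 1 at least 2-fold higher. Nuclear loci under 300 bp, which the rule leaves out, numbered 1134 and held 39.1% of the nuclear sum in opaque2 and 31.5% in wild type.

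Below the first 3, levels dropped steeply. The fourth locus, on chromosome 8 at 167864391 to 167864967, had 8080 FPKM in wild type and 20755 FPKM in opaque2 (2.57-fold higher, log2 ratio 1.36). It lies in 1 stretch of 33.8 kb with the third, and both had higher values in opaque2, although the third by less than 1.5-fold. The fifth, on chromosome 2 at 183342461 to 183343536, had 10978 and 13371 FPKM in wild type and opaque2. The sixth, on chromosome 6 at 44381573 to 44382522, had 20507 FPKM in wild type and 3384 FPKM in opaque2 (6.06-fold lower, log2 ratio −2.60). It was the fourth highest long locus of wild type and the sixteenth of opaque2.

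The next 6 loci lay within 1.5-fold, and all but the first of them had higher values in opaque2, with log2 ratios of 0.28 to 0.49. On chromosome 7 the locus at 120200894 to 120203011 had 7210 FPKM in wild type and 6561 FPKM in opaque2, and that at 153248973 to 153249284 had 5673 and 7949 FPKM. On chromosome 1 the locus at 197267922 to 197271011 had 4435 FPKM in wild type and 6251 FPKM in opaque2. All of these lay within 1.5-fold. A locus on chromosome 10 at 4093116 to 4093418 had 4445 and 5388 FPKM in wild type and opaque2, and the locus on chromosome 7 at 18854431 to 18855153 had 4060 and 5487 FPKM. The twelfth, on chromosome 1 at 178476591 to 178478157, had 3859 FPKM in wild type and 5143 FPKM in opaque2. Of the 12 loci of highest mean level, 2 were thus at least 2-fold lower, 1 was at least 2-fold higher, and 9 lay within 1.5-fold.

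The order of the most abundant loci was partly shared. Of the 10 nuclear loci of 300 bp or more with the highest level in each genotype, 7 were common to both. Of the 20 highest, 14 were common, and of the 50 highest, 37. Among the abundant loci, 96 reached 500 FPKM in both genotypes, 15 in opaque2 alone and 18 in wild type alone. A further 7 loci reached 500 FPKM in opaque2 and 14 in wild type without a mean of 500, and so are not among the 129. The median abundant locus had 965 FPKM in wild type and 953 FPKM in opaque2.

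Most of the abundant loci held their level. With a pseudocount of 1 FPKM, 75 of 129 (58.1%) lay within 1.5-fold of the other genotype. Among all 15116 nuclear loci of 300 bp or more that reached 5 FPKM in the higher genotype, that share was 84.4%. Taking opaque2 over wild type, the median log2 ratio was 0.03 for the abundant loci, with quartiles at −0.42 and 0.52. For the 15116 loci it was −0.04, with quartiles at −0.25 and 0.19. The ratios were above 0 for 66 abundant loci and below 0 for 63. Both sets were thus centred near 0. The 500 FPKM limit on the mean admits loci that are high in 1 genotype alone, which favours wide ratios, so the quartiles of the 129 are no support for a wider spread than that of other loci. The 96 loci with 500 FPKM or more in both genotypes had a median log2 ratio of 0.03 and quartiles at −0.26 and 0.43.

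At least 2-fold differences were found in both directions, with 14 abundant loci lower in opaque2 and 16 higher. Together these were 23.3% of the 129, against 6.15% of the 15116 loci (3.08% lower and 3.06% higher). A mean level of 500 FPKM can be met through 1 genotype alone, and such a locus is favoured by being high in that genotype, so these shares describe the set and are no support for a difference from other loci. Of the 33 loci that reached 500 FPKM in 1 genotype alone, 8 were lower and 9 higher by 2-fold. Of the 96 that reached it in both genotypes, 6 were lower, 7 were higher and 66 lay within 1.5-fold. Their share past 2-fold was 13.5%. Among 519 nuclear loci of 300 bp or more that reached 100 FPKM in both genotypes but had a mean under 500, it was 3.47%, with 7 lower and 11 higher. Among the 1467 that reached 50 FPKM in both with a mean under 500, the 519 included, it was 3.20%, with 23 lower and 24 higher. These 2 sets are bounded from below and above, which limits how wide their ratios can be, and the 96 have no upper bound. Without the condition on both genotypes, 9.17% of 654 loci with a mean of 100 to 500 FPKM passed 2-fold. The shares thus depend on the limits and are no support for a difference between the sets.

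**Figure D2:**
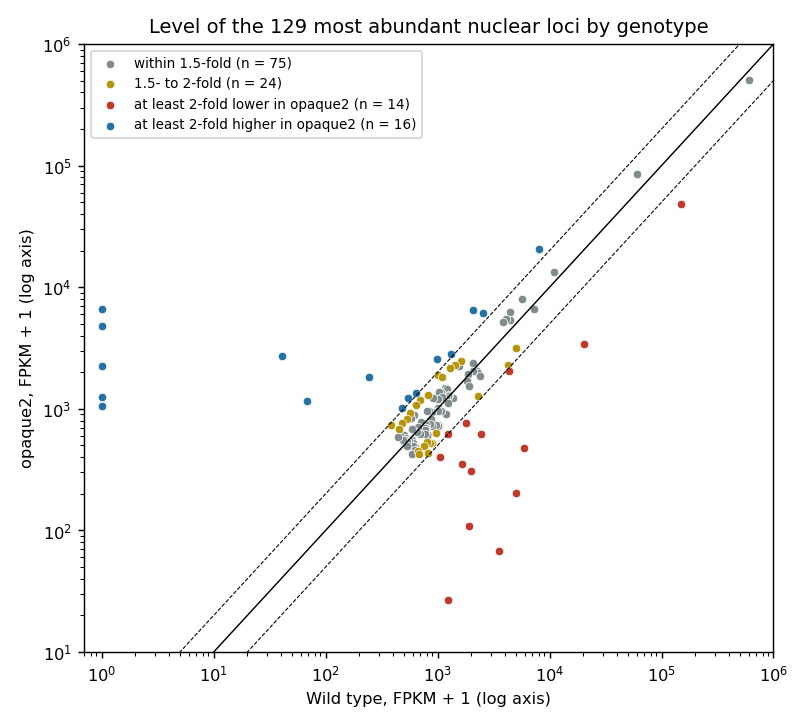
Level of each of the 129 abundant loci in opaque2 (vertical) against wild type (horizontal), in FPKM + 1 on log axes; the solid line marks equal levels and the dashed lines 2-fold. The 75 grey points lie within 1.5-fold, and the 5 points at the left edge have a wild type value of 0.

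The 14 abundant loci that were at least 2-fold lower in opaque2 summed to 201319 FPKM in wild type and 57395 FPKM in opaque2. The chromosome 1 locus of second rank held most of both sums, and the other 13 summed to 52522 FPKM in wild type and 9371 FPKM in opaque2. The lowest ratios were found on chromosome 4. The locus at 5167197 to 5172399 had 3531 FPKM in wild type and 67.0 FPKM in opaque2 (52.7-fold lower, log2 ratio −5.70). At 5093411 to 5137340, where 8 loci are listed at 1 position, a pair passed the level of 500 FPKM. The members of this pair had 5859 and 1240 FPKM in wild type and 480 and 25.7 FPKM in opaque2, with log2 ratios of −3.61 and −5.54. All 3 loci were among the 50 highest of wild type, at ranks 8, 18 and 44, and ranked 129, 1322 and 4102 in opaque2. Loci listed at 1 position may share reads, so the split between them is uncertain.

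A further locus of chromosome 4, at 21312310 to 21313388, stood apart from this group and was nearly as far down. It had 4979 FPKM in wild type and 202 FPKM in opaque2 (24.6-fold lower, log2 ratio −4.62). Its nearest neighbours of 5 FPKM or more had 138 and 34.1 FPKM in wild type and 152 and 45.1 FPKM in opaque2, so the difference was not seen next to it. On chromosome 7 the locus at 18768582 to 18769307 had 1920 FPKM in wild type and 108 FPKM in opaque2 (17.8-fold lower, log2 ratio −4.14). Its neighbours on either side were lower in opaque2 as well, with 903 and 28.9 FPKM in wild type and 24.8 and 1.88 FPKM in opaque2.

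Chromosome 6 held 4 of the 14 lower loci. Besides the sixth-ranked locus, these were a close pair and a single locus. In the pair, the locus at 39088029 to 39088716 had 1650 FPKM in wild type and 351 FPKM in opaque2 (log2 ratio −2.23). That at 39092081 to 39092901 had 1987 and 306 FPKM in wild type and opaque2 (log2 ratio −2.69). They lie 3.36 kb apart, and their summed level was 3636 FPKM in wild type and 657 FPKM in opaque2 (log2 ratio −2.47). The single locus, at 145987055 to 145997616, had 1060 FPKM in wild type and 402 FPKM in opaque2 (log2 ratio −1.40).

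The other lower loci differed by 2.03-fold to 3.93-fold. On chromosome 10, the locus at 11913921 to 11914488 had 2433 FPKM in wild type and 619 FPKM in opaque2 (log2 ratio −1.97). On chromosome 9, the locus at 154544227 to 154545597 had 1780 and 766 FPKM in wild type and opaque2 (log2 ratio −1.22). The last 2 loci lay on chromosome 4 and were close to the limit of 2-fold. The locus at 5544034 to 5556634 had 4326 FPKM in wild type and 2043 FPKM in opaque2 (log2 ratio −1.08), and that at 5530750 to 5531969 had 1251 and 618 FPKM (log2 ratio −1.02). When the sums of nuclear loci of 300 bp or more were set equal, which moves every log2 ratio up by 0.17, these 2 loci no longer passed, and 12 lower loci were left.

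**Figure D3:**
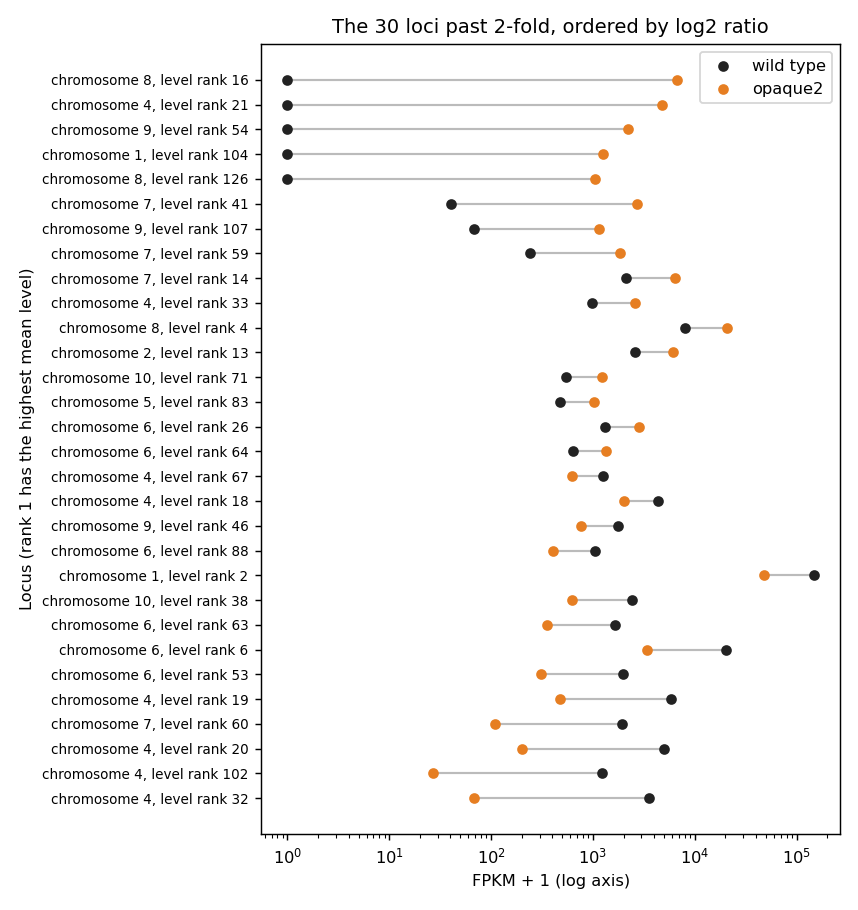
Level in FPKM + 1 (log axis) of the 30 abundant loci past 2-fold in wild type (black) and opaque2 (orange), ordered by log2 ratio, each labelled by its chromosome and its rank by mean level. The upper 16 loci are higher and the lower 14 are lower in opaque2; the 5 uppermost have a wild type value of 0.

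Among the 16 abundant loci that were at least 2-fold higher in opaque2, 11 were above 0 in both genotypes and summed to 17047 FPKM in wild type and 48026 FPKM in opaque2. The fourth-ranked locus on chromosome 8, described above, was the highest of them. The widest ratio was that of the locus on chromosome 7 at 14459963 to 14466085, with 39.7 FPKM in wild type and 2720 FPKM in opaque2 (68.6-fold higher, log2 ratio 6.06). Next came the locus on chromosome 9 at 106398227 to 106409066, with 66.8 FPKM in wild type and 1158 FPKM in opaque2 (17.3-fold, log2 ratio 4.10). A second locus of chromosome 7, at 158959755 to 158961279, had 242 and 1840 FPKM in wild type and opaque2 (7.60-fold, log2 ratio 2.92). These 3 loci reached 500 FPKM in opaque2 alone.

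The remaining higher loci with a value in both genotypes lay between 2.12-fold and 3.08-fold. The locus on chromosome 7 at 18866467 to 18867189 had 2091 FPKM in wild type and 6445 FPKM in opaque2 (log2 ratio 1.62). On chromosome 2, the locus at 160150779 to 160152270 had 2566 and 6101 FPKM in wild type and opaque2 (log2 ratio 1.25). On chromosome 4, the locus at 201936215 to 201938145 had 983 and 2593 FPKM (log2 ratio 1.40). In each of these 3 loci the wild type level itself was above 500 FPKM. On chromosome 10, the locus at 144442270 to 144442574 had 544 FPKM in wild type and 1223 FPKM in opaque2 (log2 ratio 1.17), and on chromosome 5 that at 14072358 to 14073760 had 478 and 1024 FPKM (log2 ratio 1.10). On chromosome 6 a pair listed at 1 position, 39891824 to 39893787, had 1322 and 635 FPKM in wild type and 2825 and 1344 FPKM in opaque2, with log2 ratios of 1.09 and 1.08. That pair and the close pair of lower loci described above lie on the same chromosome, less than 1 Mb apart, and differed in opposite directions.

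For the last 5 higher loci the wild type value was 0, and no fold is given for them because an estimate that failed may also be written as 0. The highest in opaque2 had 6631 FPKM and lay on chromosome 8 at 170103717 to 170110904. Then came 4816 FPKM on chromosome 4 at 142948906 to 142951576, and 2234 FPKM on chromosome 9 at 144385601 to 144386370. The other two had 1257 FPKM, on chromosome 1 at 45637088 to 45665900, and 1047 FPKM, on chromosome 8 at 167320224 to 167320961. Together they held 15985 FPKM in opaque2. The locus on chromosome 9 was alone at its position, and the positions of the others list 2 or 3 loci each. At those positions the abundant locus held 94.8% or more of the mean level summed over the position. Loci listed at 1 position may share reads. No abundant locus was listed at 0 in opaque2. Values of 0 made up 0.41% of the 15116 loci for wild type and 0.258% for opaque2.

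Physical clusters were sought by joining abundant loci up to 200 kb apart. Groups of 3 or more distinct positions were found on chromosomes 4, 7 and 10, with 13 loci in all. They held 3.69% of the summed level of the abundant loci in opaque2 and 2.93% in wild type. A further 8 groups had 2 positions, with 18 loci. The other 98 loci, called single here, had no abundant locus at another position within 200 kb. Some of them shared their own position with another abundant locus. Of the 31 grouped loci, 8 were at least 2-fold lower and 2 higher in opaque2. Of the 98 single loci, 6 were lower and 14 higher. Loci of 1 position were counted one by one, among them the chromosome 6 pair at 39891824 to 39893787, both higher and both single. With the sums of nuclear loci of 300 bp or more set equal, the lower loci were 6 grouped and 6 single, and the higher loci were 3 grouped and 15 single. Single loci made up 76.0% of all abundant loci.

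The cluster on chromosome 4 at 5516523 to 5556634 spanned 40.1 kb, with 6 loci at 5 positions. Its sum was 14511 FPKM in wild type and 10646 FPKM in opaque2 (log2 ratio −0.45), and its loci differed in both directions. Of its members, the locus at 5516523 to 5518566 had 848 and 519 FPKM in wild type and opaque2, and that at 5535144 to 5536416 had 1017 and 1914 FPKM (log2 ratio 0.91). The locus at 5539789 to 5540927 had 2074 FPKM in wild type and 2387 FPKM in opaque2. At 5544034 to 5556634, 2 loci share a position, and the one not given above had 4996 and 3166 FPKM in wild type and opaque2 (log2 ratio −0.66). Within the cluster 4 loci thus had lower values in opaque2 and 2 had higher values, with log2 ratios from −1.08 to 0.91.

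This cluster lies 344 kb beyond the 3 loci at 5093411 to 5172399, which sum to 10630 FPKM in wild type and 572 FPKM in opaque2 (log2 ratio −4.21). The 2 groups held 10630 and 14511 FPKM in wild type, and 572 and 10646 FPKM in opaque2. The 3 loci of the first group were each lower in opaque2 by 12.2-fold or more, while no locus of the second differed by more than 2.12-fold. The stretch of the first group lists 10 other loci. All 7 of them with 5 FPKM or more in the higher genotype were also at least 2-fold lower. Some of the 10 are listed at the position of an abundant locus and may share reads with it, so they are not separate evidence. The nearest such loci at other positions within the stretch had 439 and 266 FPKM in wild type. In opaque2 they had 30.4 and 6.61 FPKM, so lower values there were also seen apart from the positions of the abundant loci. Whether reads were shared between positions was not tested.

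The cluster on chromosome 7 at 18768582 to 18944704 spanned 176 kb with 4 loci. It summed to 8565 FPKM in wild type and 12593 FPKM in opaque2 (log2 ratio 0.56). Its members differed in opposite directions, with log2 ratios from −4.14 at 18768582 to 1.62 at 18866467. The first 3 span 726, 723 and 723 bp, and near-identical copies may share reads. Between them the locus at 18854431 had a log2 ratio of 0.43, and the last, at 18943733 to 18944704, had 493 FPKM in wild type and 554 FPKM in opaque2. Without the locus at 18866467, the log2 ratio of the sums was −0.07, so the higher sum in opaque2 rested on that locus.

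The cluster on chromosome 10 at 4089030 to 4193252 spanned 104 kb and held its level. The locus at 4089030 to 4089660 had 1550 FPKM in wild type and 2238 FPKM in opaque2, and the tenth-ranked locus next to it is given above. The locus at 4192336 to 4193252 had 512 and 557 FPKM in wild type and opaque2. The sum was 6507 FPKM in wild type and 8183 FPKM in opaque2 (log2 ratio 0.33), and log2 ratios ran from 0.12 to 0.53.

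**Figure D4:**
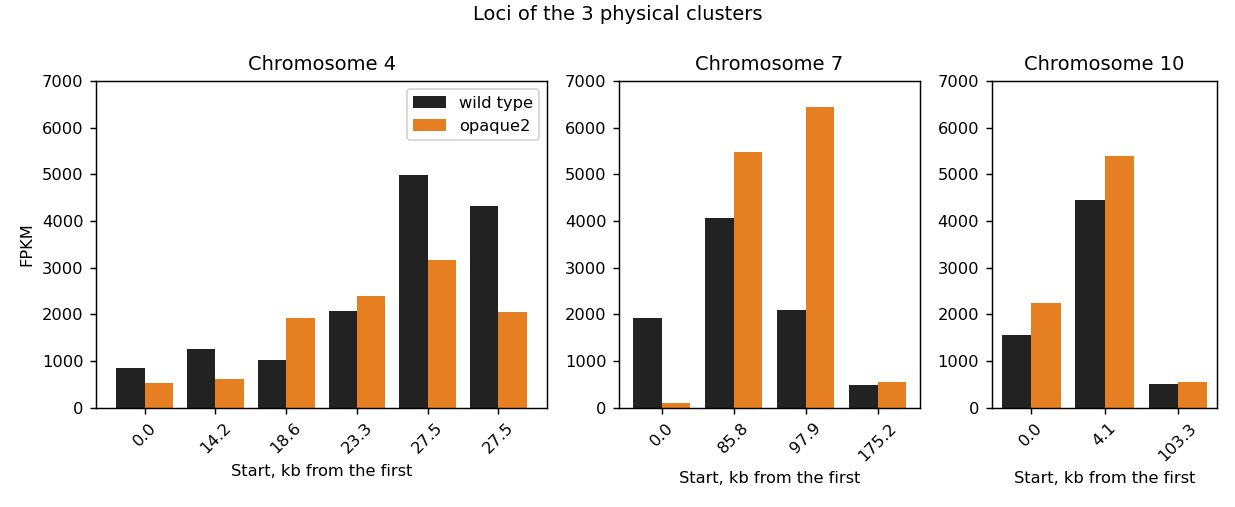
FPKM in wild type (black) and opaque2 (orange) of each abundant locus in the clusters on chromosomes 4, 7 and 10, placed in order and labelled by the distance of its start from the first start in kb. The chromosome 7 panel shows its first locus at 1920 FPKM in wild type and 108 FPKM in opaque2 beside the third at 2091 and 6445 FPKM.

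The groups with 2 positions mostly had lower sums in opaque2. Besides the pairs on chromosomes 4, 6 and 8 given above, a pair on chromosome 4 at 29922223 to 29935053 summed to 4925 FPKM in wild type and 2742 FPKM in opaque2 (log2 ratio −0.84). Its first locus, at 29922223 to 29923189, ranked seventeenth by mean, with 4245 and 2285 FPKM in wild type and opaque2. On chromosome 7, the 3 loci at 120173851 to 120203011 summed to 10692 and 9452 FPKM (log2 ratio −0.18). The other pairs, on chromosomes 5, 6 and 9, had log2 ratios of their sums of −0.58, −0.52 and −0.11. Of the 8 groups, 7 had a lower sum in opaque2 and the pair on chromosome 8 had a higher sum.

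Neighbours of the abundant loci were examined on each side, taking the nearest locus of 300 bp or more with 5 FPKM or more in the higher genotype. Of the 14 lower loci, 7 had a neighbour that was also at least 2-fold lower, and these were all on chromosomes 4, 6 and 7. For 6 of the 14, no neighbour passed 2-fold. Of the 16 higher loci, 3 had a neighbour that was also at least 2-fold higher, and for 12 no neighbour passed. Of the 75 loci within 1.5-fold, 62 had no neighbour past 2-fold. Loci at 1 position have the same neighbours and were counted one by one. A neighbour could itself be an abundant locus. With such neighbours left out, 8 of 24 neighbours of the lower loci were at least 2-fold lower and 2 higher. These lower neighbours lay on chromosomes 4 and 7 alone, and some were counted more than once. For the higher loci, 3 of 31 were higher and 1 lower. Over all 15116 loci, 3.08% were at least 2-fold lower and 3.06% higher.

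Abundant loci were unevenly spread over the chromosomes, in small counts that were not tested. Loci of 1 position were counted one by one. Over all chromosomes, 0.301% of the nuclear loci of 300 bp or more were abundant. Chromosome 9 carried 18 abundant loci, or 5.48 per 1000 nuclear loci of 300 bp or more, and chromosome 6 carried 17 (4.85 per 1000). Chromosome 7 had 16 (4.59 per 1000) and chromosome 4 had 20 (4.43 per 1000). Chromosome 2 had the fewest, 5 (0.972 per 1000). The lower loci were 6 of the 20 on chromosome 4, 4 of the 17 on chromosome 6, and 1 each on chromosomes 1, 7, 9 and 10. Of the 6 on chromosome 4, 3 lay at 5093411 to 5172399 and 2 at 5516523 to 5556634. Over all 15116 loci 3.08% were lower, and that share was not measured by chromosome. The higher loci lay on 9 chromosomes, with 3 each on chromosomes 7 and 8. On chromosome 3 none of 12 abundant loci passed 2-fold, and 10 of them lay within 1.5-fold.

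Among the chromosomes that carry none of the 3 highest loci, the summed level differed most on chromosomes 4 and 6, where it was lower in opaque2, and on chromosomes 2 and 7, where it was higher. On chromosome 4 it was 40747 FPKM in wild type and 26855 FPKM in opaque2 (log2 ratio −0.60). On chromosome 6 it was 37363 and 17517 FPKM (log2 ratio −1.09), and the sixth-ranked locus alone accounted for 17123 FPKM of that difference. On chromosome 7 it was 30085 FPKM in wild type and 39684 FPKM in opaque2 (log2 ratio 0.40). On chromosome 2 it was 16220 and 22270 FPKM (log2 ratio 0.46). On chromosomes 3, 5 and 10 the log2 ratios of the sums were 0.15, 0.14 and −0.09. On chromosomes 1, 8 and 9 the highest loci held most of the sums. Without these they were 16981 and 24061 FPKM in wild type and opaque2 on chromosome 1, 14146 and 34166 FPKM on chromosome 8, and 15398 and 17178 FPKM on chromosome 9. On chromosome 8 the fourth-ranked locus was 12675 FPKM higher in opaque2. Loci with a wild type value of 0 added 6631 and 1047 FPKM to the opaque2 sum there. Such loci added 1257 FPKM on chromosome 1, 2234 FPKM on chromosome 9 and 4816 FPKM on chromosome 4. The log2 ratio of −0.60 given for chromosome 4 includes that value.

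The abundant loci tended to be shorter than the 15116 expressed loci, which include them, and more often shared a position. Choice by FPKM can favour short transcripts, and how far it shaped the spans was not tested. Their median span was 2044 bp, against 4108 bp for the 15116 loci, and 6.98% spanned less than 500 bp, against 2.26%. The span covers the whole locus, introns included, and is not the length of the transcript. Of the 129 loci, 49 (38.0%) were listed at a position with at least 1 other locus, against 25.1% of the 15116. In 27 of these 49 the abundant locus held 90% or more of the mean level summed over its position. At 7 positions 2 or more abundant loci were listed together, 15 loci in all.

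The level limit of 500 FPKM cut through a continuous range. Just inside it lay loci of 507, 511 and 516 FPKM in mean level, on chromosomes 7, 4 and 9. Just outside lay loci of 493, 493 and 484 FPKM, on chromosomes 6, 9 and 10. All 6 were within 1.5-fold between the genotypes, with log2 ratios from −0.46 to 0.41.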

How the data were processed

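Endosperm RNA of 1 wild type and 1 opaque2 sample was analysed, with genotypes taken from the labels. The authors deposited 1 FPKM value for each locus in each sample, per the file headers. Bowtie 0.12.2 is named in the submitters' processing notes. The sources used here do not give its step, the FPKM program, the build or the annotation. Without transcript lengths, fragments were not recovered from the values. Starts count from 0: with 1 added, 48 mitochondrial starts equalled one in the reference table, and as deposited 0 did, so positions are given with 1 added. Log2 ratios are of opaque2 over wild type with a pseudocount of 1 FPKM, which understates changes of low loci. The background was nuclear loci of 300 bp or more whose higher value was 5 FPKM or more. Clusters joined loci up to 200 kb apart and needed 3 positions. The locus set and rules were chosen with earlier results of these data known. Loci given were the 12 highest, all past 2-fold, cluster members and those nearest the limit; groups of 2 positions and neighbours were added after seeing the values. Ratio calls and clusters were run on simulated data with planted differences and a preset noise not taken from these data. That checked the code alone and not the calls made here. Alternatives changed level and span limits, pseudocount, scaling, fold and gap. Python 3.11.15, NumPy 2.4.6, pandas 2.3.3 and Matplotlib 3.10.9 were used.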

Additional observations from a re-analysis of the deposited data

How the results depend on the processing

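Counts followed the limits. With a mean of 1000 FPKM, 63 loci were abundant, with 10 higher, 33 within 1.5-fold and 7 in clusters. With 250 FPKM there were 246, with 22 lower, 164 within 1.5-fold, 6 clusters and 24 loci in them. Without a span limit 203 loci held 77.8% of the nuclear sum in opaque2 and 78.2% in wild type, 35 of them lower and 31 higher. With 500 bp or more the shares were 9.45% and 9.06%. Over nuclear loci of 300 bp or more the opaque2 share was 66.4%. The shares were 16.6% and 19.6% in opaque2 and wild type without the highest locus. Without the 2, 3 and 4 highest, alternatives chosen after seeing the data, they were 14.3% and 12.6%, 10.3% and 9.71%, and 9.28% and 9.32%. The difference between the genotypes thus changed sign with 500 bp or more and without the 2 or 3 highest loci, but not without the 4 highest. At 1.5-fold 25 loci were lower and 29 higher, and at 4-fold 8 and 8. With a gap of 50 kb there was 1 cluster with 6 loci, and with 500 kb there were 20 loci in clusters. Without its locus at 18866467, also chosen after seeing the data, the chromosome 7 cluster had a log2 ratio of −0.074. The other 88 of 121 alternative values stayed within 1.5-fold of those reported. Setting sums of nuclear loci of 300 bp or more equal moved log2 ratios by 0.17, giving 12 lower and 18 higher loci. The median log2 ratio lay between −0.10 and 0.20, so its sign depended on the setting. Requiring values above 0 in both libraries left 11 higher loci. No paired analysis was possible because there was a single sample of either genotype. Depth is unknown, so what it limits was not measured.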
